A study of Mus musculus with 3 samples.

Results

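The genes described here are 10 regulators of growth arrest: Trp53, its inhibitor Mdm2, its known targets Cdkn1a, Ccng1, Btg2, Gadd45a, Sesn2 and Phlda3, and the Ink4 and Arf genes Cdkn2a and Cdkn2b. The list was drawn up by function, with earlier results of these libraries known, and was matched by Entrez gene ID. All 10 were found among the 16621 genes listed in at least 1 library and passed the filter on low counts that left 12888 genes for testing. The cells were stem cells derived from the tail tendon of C57BL/6 mice aged 10 weeks. They were grown to confluence in serum without treatment and collected at passage 4 for sequencing of poly(A) RNA. One group, WT, was wild type and had 1 library. The other, DF508, carried the CFTRΔF508 mutation of the chloride channel gene Cftr and had 2 libraries. Nothing in the labels ties the DF508 pair to different mice or dishes. The p-values therefore rest on a spread between 2 libraries that may not measure variation between mice or dishes. That spread was pooled with one estimated across all tested genes. WT had no replicate and was taken to vary like the DF508 pair.

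In the textbook account, p53, the protein of Trp53, is held at a low level by the ubiquitin ligase MDM2 and accumulates when DNA is damaged or growth is forced. It then switches on genes that stop the cell cycle, above all Cdkn1a, whose product p21 inhibits cyclin-dependent kinases, and it switches on Mdm2, which closes a feedback loop. Cdkn2a makes a pair of unrelated proteins from separate first exons, the kinase inhibitor p16 and the MDM2 inhibitor ARF, and in cultured mouse fibroblasts both are known to build up with passage.

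Of the 10 genes, Btg2 and Gadd45a fell in DF508, none rose, and 8 did not pass the test (quasi-likelihood test in edgeR, p adjusted by Benjamini-Hochberg over all tested genes, threshold 0.05). None was higher at an unadjusted p under 0.05, nor called higher by any other tool run. Over all tested genes 0.9% were called lower and 0.489% higher. Both falls depended on the settings: of 11 alternative settings tested, Btg2 passed in 6 and Gadd45a in 3. Trp53 itself stood at nearly the same level in all libraries. The DF508 libraries also differed from each other: every one of the 10 genes was lower in replicate 2 than in replicate 1, with Cdkn2a and Cdkn2b furthest apart.

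The start regions of 4 genes are shown. Btg2 and Gadd45a were taken because they fell, and Cdkn1a and Ccng1 because a window of each holds a p53 site. Each is the RefSeq window from 250 bases before to 50 bases after a transcription start in GRCm38.p6, written 5′ to 3′ on the gene's strand. All 10 genes had such a window, 12 in all. For Cdkn1a the upstream one of its annotated starts is given. Capitals mark the cAMP response element TGACGTCA in Btg2, the octamer ATGCAAAT on either strand in Gadd45a, and in the others a p53 site, taken as 2 adjacent p53 consensus half-sites with at most 1 of 20 letters off.
Btg2, chr1:134079106-134079405, minus strand: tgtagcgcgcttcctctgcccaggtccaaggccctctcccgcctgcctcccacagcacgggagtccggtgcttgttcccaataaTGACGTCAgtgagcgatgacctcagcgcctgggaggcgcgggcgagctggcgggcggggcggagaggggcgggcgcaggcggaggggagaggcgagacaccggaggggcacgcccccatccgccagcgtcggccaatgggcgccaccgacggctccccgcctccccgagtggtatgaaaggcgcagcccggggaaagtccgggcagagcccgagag
Gadd45a, chr6:67037358-67037657, minus strand: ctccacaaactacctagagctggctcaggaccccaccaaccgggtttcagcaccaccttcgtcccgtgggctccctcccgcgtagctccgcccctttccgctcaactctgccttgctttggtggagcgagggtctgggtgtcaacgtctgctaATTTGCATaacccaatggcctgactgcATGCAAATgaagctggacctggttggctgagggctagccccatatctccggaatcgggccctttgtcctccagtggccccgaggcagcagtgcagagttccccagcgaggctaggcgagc
Cdkn1a, chr17:29090729-29091028, plus strand: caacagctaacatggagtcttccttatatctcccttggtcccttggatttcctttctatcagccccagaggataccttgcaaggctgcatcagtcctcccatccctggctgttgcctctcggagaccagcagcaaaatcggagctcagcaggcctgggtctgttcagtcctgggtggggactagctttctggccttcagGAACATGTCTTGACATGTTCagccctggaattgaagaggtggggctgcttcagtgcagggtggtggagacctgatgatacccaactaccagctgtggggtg
Ccng1, chr11:40755237-40755536, minus strand: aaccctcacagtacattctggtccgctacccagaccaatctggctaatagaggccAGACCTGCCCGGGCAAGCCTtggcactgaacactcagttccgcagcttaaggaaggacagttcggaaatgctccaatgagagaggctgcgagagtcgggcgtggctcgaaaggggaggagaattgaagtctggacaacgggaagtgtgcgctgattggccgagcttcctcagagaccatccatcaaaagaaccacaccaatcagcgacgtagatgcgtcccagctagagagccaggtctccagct

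The p53 site was found in 2 of the 12 windows of these genes and in 29 of all 32851 RefSeq windows (0.0883%). It lay at positions -51 to -32 in Cdkn1a and -195 to -176 in Ccng1, counted from the start site. A single exact half-site was present in 5 of the 12 windows, those of Trp53, Mdm2, Cdkn1a, Ccng1 and Gadd45a, against 8.36% of all windows. The letters TGACGTCA were held by the windows of Btg2 and Cdkn2b and by 1.79% of all windows, and the octamer by that of Gadd45a, on both strands, and by 1.74%. Half-sites outside a p53 site are not in capitals above, among them that of Gadd45a at -40 to -31. The other Cdkn1a window held no p53 site. Sequence beyond the windows was not searched, so a gene without a match may hold a site elsewhere. These motifs were picked with the sequences and the earlier results in view, and a match describes letters only.

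Levels are given in CPM, the count scaled to the library total. The total estimated counts were 5298326 in WT, 5241826 in DF508 replicate 1 and 5246886 in DF508 replicate 2. TMM, the normalization used in the test, changed these sizes by factors of 0.98, 1.01 and 1.01. Markers of tendon cells and fibroblasts were abundant, with 53222 to 56695 CPM summed over 15 genes and Thbs4 the highest, although Scx, a transcription factor that defines tendon cells and was singled out after its values were seen, had only 11 to 16 counts. Of 6 epithelial markers 4 were listed in no library, among them Cdh1, and of 7 endothelial markers 4, among them Pecam1, while the endothelial receptor gene Tek had 77, 69 and 65 counts in WT and DF508 replicates 1 and 2. The 14 myeloid markers summed to 103 CPM in WT, 160 CPM in DF508 replicate 1 and 752 CPM in replicate 2, with Lyz2 the highest and Aif1 at 0 counts in WT. All 13 that were tested had positive fold changes, 10 of them at an unadjusted p under 0.05, and edgeR called 0.

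**Figure D1:**
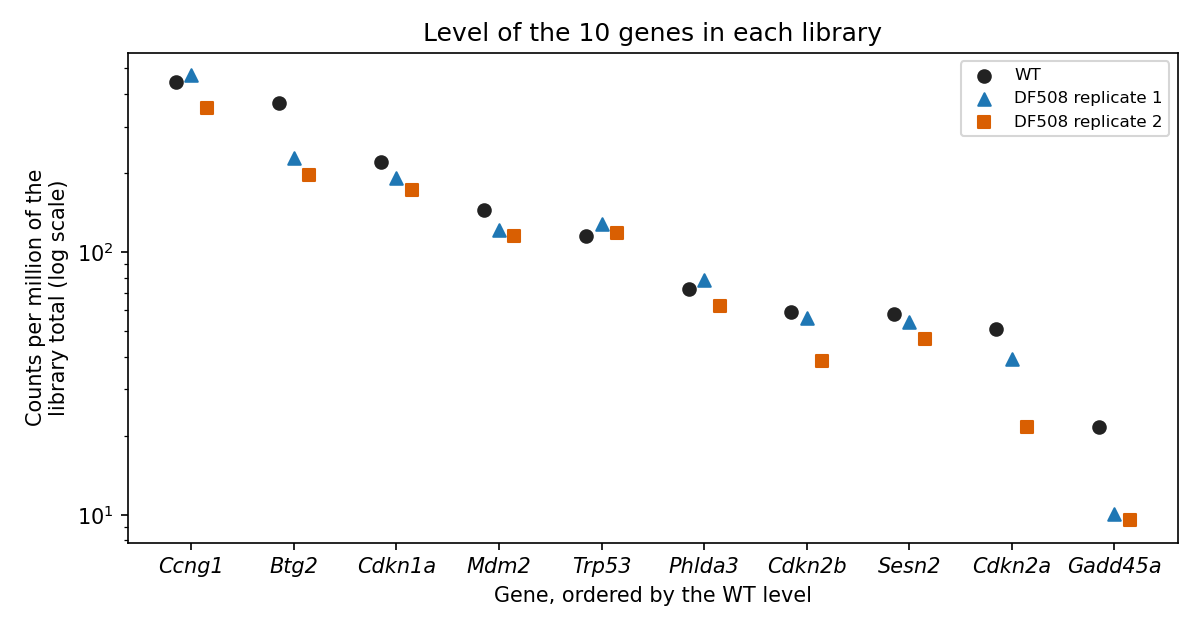
Level of each gene (horizontal axis, ordered by WT level) in CPM (vertical axis, log scale), with 1 point per library. Btg2 and Gadd45a stand lower in both DF508 libraries than in WT, and the square of DF508 replicate 2 is below the triangle of replicate 1 for all 10 genes.

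Compared per transcript length, in FPKM, Ccng1 was the highest of the group in every library, with 126 in WT and 134 and 101 in DF508 replicates 1 and 2. Gadd45a was the lowest in every library, at 17.9, 8.39 and 7.91 FPKM. Btg2 had rank 2 in WT at 120 FPKM, and ranks 3 and 4 in DF508 replicates 1 and 2 at 74 and 63.7 FPKM. Cdkn2a had rank 5 in WT and ranks 6 and 8 in the DF508 libraries. In DF508 the mean levels of the neighbours Trp53 and Btg2 of 69.1 ± 4.21 and 68.8 ± 7.26 FPKM (SD, n = 2) differed by less than the spread.

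Trp53 (gene ID 22059) encodes p53, which is controlled largely through the stability of the protein. Its level was 115 CPM in WT and 128 and 118 CPM in DF508 replicates 1 and 2. On library totals both DF508 libraries were slightly above WT, by less than counting error allows to separate, and on TMM library sizes replicate 2 was just below it (ratio 0.991). On library totals the ratios to WT were 1.11 (exact 95% interval 0.996 to 1.24) and 1.02 (0.913 to 1.15). The log2 fold change was 0.05 ± 0.11 (SE; edgeR adjusted p = 0.913). Such intervals cover counting error only, here and throughout. Wrap53, which lies head to head with Trp53, had 35 to 44 counts against 611 to 673 for Trp53. Whether counting used strand is unknown.

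Mdm2 (gene ID 17246), the ligase that marks p53 for degradation and is itself a p53 target, had 145 CPM in WT and 121 and 115 CPM in the DF508 libraries. Both were below WT, with ratios of 0.836 (0.751 to 0.93) and 0.791 (0.709 to 0.881), and they were closer to each other than to WT. A log2 fold change of -0.34 ± 0.11 did not pass (edgeR adjusted p = 0.213). Mdm2 was the only one of the 10 whose estimate was not a whole number, which marks reads shared with a similar sequence, and its level is uncertain.

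Cdkn1a (gene ID 12575), the p21 gene, had 220 CPM in WT and 191 and 172 CPM in DF508 replicates 1 and 2. The ratios to WT were 0.867 (0.796 to 0.944) and 0.78 (0.714 to 0.851), both below 1 beyond counting error. Its log2 fold change of -0.32 ± 0.11 did not pass (edgeR adjusted p = 0.255). Like Mdm2, it was lower in each DF508 library than in WT.

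Ccng1 (gene ID 12450) encodes cyclin G1, a p53-induced partner of a phosphatase that acts on MDM2. It had 444 CPM in WT, 471 CPM in DF508 replicate 1 and 353 CPM in replicate 2. WT lay between the DF508 libraries, so the groups overlap. The ratio to WT was 1.06 (1.00 to 1.12) in replicate 1 and 0.796 (0.749 to 0.847) in replicate 2, opposite in direction. The fit gave a log2 fold change of -0.15 ± 0.15 (edgeR adjusted p = 0.774).

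Phlda3 (gene ID 27280), a p53 target whose product restrains the kinase Akt, showed the same arrangement. It had 72.3 CPM in WT, 78.6 CPM in replicate 1 and 62.1 CPM in replicate 2, again with WT between the DF508 libraries. The fit gave a log2 fold change of -0.08 ± 0.15 (edgeR adjusted p = 0.892).

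Btg2 (gene ID 12227), an antiproliferative gene induced by p53 and also known as an early-response gene of serum and growth factors, fell in DF508. It had 370 CPM in WT and 229 and 197 CPM in DF508 replicates 1 and 2. Both DF508 libraries were far below WT, and the gap between them, 0.861 as a ratio, was smaller than either gap to WT. The ratios to WT were 0.618 (0.575 to 0.665) and 0.532 (0.493 to 0.574). In the fit Btg2 was 1.79-fold lower (log2 fold change -0.84 ± 0.11 SE, edgeR adjusted p = 0.0139). It also passed with DESeq2's Wald test (adjusted p = 0.00116) and limma-voom (adjusted p = 0.00798). It did not pass in edgeR on library totals without TMM (adjusted p = 0.441), in edgeR without a filter on low counts (adjusted p = 0.662) or in limma on FPKM (adjusted p = 0.499 to 0.509), at log2 fold changes of -0.79 to -0.85.

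Gadd45a (gene ID 13197) encodes a stress sensor that binds PCNA and p21 and is known to be induced by DNA damage. It fell from 21.5 CPM in WT to 10.1 and 9.53 CPM in the DF508 libraries, resting on 114, 53 and 50 counts. The DF508 libraries were nearly equal and both were less than 0.5 times WT, with ratios of 0.47 (0.333 to 0.656) and 0.443 (0.311 to 0.623). In the fit it was 2.26-fold lower (log2 fold change -1.17 ± 0.23 SE), just inside the threshold (edgeR adjusted p = 0.049). The call was lost with upper-quartile factors (adjusted p = 0.0594), with a minimum mean of 50 counts (0.0569), with DESeq2's Wald test (adjusted p near 1), and under the 5 settings that also lost Btg2 (0.441 to 0.662), at log2 fold changes of -1.04 to -1.18.

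Sesn2 (gene ID 230784) encodes sestrin 2, which restrains the growth kinase mTORC1 under stress. It had 58.3 CPM in WT and 54.2 and 46.5 CPM in the DF508 libraries. Replicate 1 could not be told from WT by counting error (ratio 0.929, 0.788 to 1.09) and replicate 2 was lower (0.797, 0.671 to 0.946). The log2 fold change was -0.26 ± 0.14 (edgeR adjusted p = 0.52).

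Cdkn2a (gene ID 12578), the p16 and ARF gene, had 51.1 CPM in WT, 39.1 CPM in DF508 replicate 1 and 21.5 CPM in replicate 2. Both DF508 libraries were below WT, and replicate 2 was further from replicate 1 than replicate 1 was from WT. The ratio of the DF508 libraries was 0.551 (0.434 to 0.696), and their ratios to WT were 0.765 (0.635 to 0.92) and 0.421 (0.335 to 0.526). The mean in DF508 was 30.3 ± 12.4 CPM (SD, n = 2). Its log2 fold change of -0.80 ± 0.27 was close in size to that of Btg2, but with a larger standard error, and it did not pass (edgeR adjusted p = 0.26). The table counts the p16 and ARF transcripts together. The gene length that RSEM weights over them was 870, 878 and 886 bases in WT and DF508 replicates 1 and 2, and the share of each transcript was not analysed here.

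Cdkn2b (gene ID 12579), which neighbours Cdkn2a and encodes the kinase inhibitor p15, had 59.1 CPM in WT, 56.1 CPM in replicate 1 and 38.5 CPM in replicate 2. Replicate 1 was level with WT (ratio 0.949, 0.807 to 1.12) and replicate 2 was lower (0.652, 0.543 to 0.78). The log2 fold change was -0.37 ± 0.20 (edgeR adjusted p = 0.523). In both of these neighbouring genes DF508 replicate 2 was the lowest library, and replicate 1 was below WT beyond counting error for Cdkn2a and not for Cdkn2b.

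**Figure D2:**
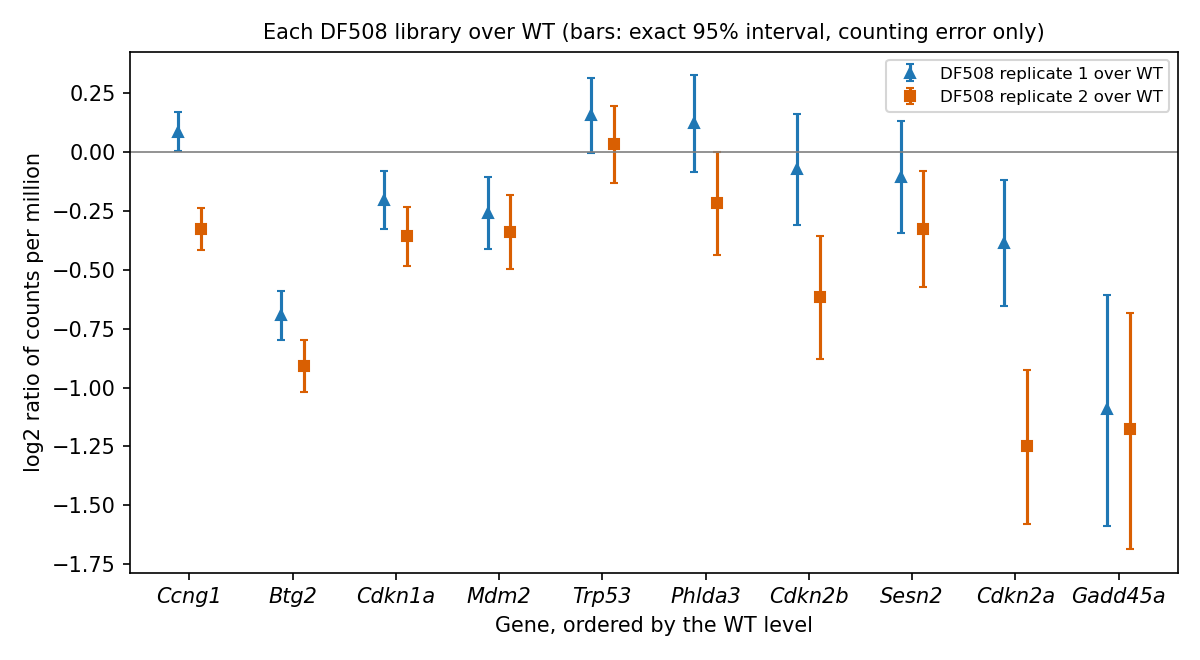
Log2 ratio of CPM (vertical axis) of DF508 replicate 1 (triangles) and replicate 2 (squares) to WT for each gene (horizontal axis), with exact 95% intervals for counting error. On these library totals both ratios lie below 0 for 7 genes, Trp53 has both above 0, and Ccng1 and Phlda3 have 1 on each side.

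Read by direction alone, both DF508 libraries were below WT in 7 of the 10 genes, where 29.6% of all tested genes were so placed. Both were above WT in 1, Trp53, against 43.3%. On TMM library sizes, a scaling added after seeing the data, both were below WT in 7 and above it in 0 of the 10, against 36.2% and 36.3% of all tested genes. By size, 2 of the 10, Btg2 and Gadd45a, were at least 1.5-fold lower in both DF508 libraries, against 2.41% of all tested genes, and 1, Gadd45a, at least 2-fold lower, against 0.66%. None of the 10 was at least 1.5-fold or 2-fold higher in both, against 5.49% and 2.01%. The median log2 fold change of the 10 was -0.33, and that of all tested genes 0.01. It was -0.39 without DF508 replicate 1 and -0.20 without replicate 2. At an unadjusted p under 0.05 there were 5 of the 10, all lower, namely Btg2, Gadd45a, Mdm2, Cdkn1a and Cdkn2a, where 11.9% of all tested genes reached that level in either direction. The counting interval of replicate 1 over WT lay below 1 in 5 genes (10% of all tested genes) and above 1 in Ccng1 alone (15%). That of replicate 2 over WT lay below 1 in 9, all but Trp53 (10.5%), and above 1 in 0 (16.6%). Both comparisons use the same WT library. An interval narrows as counts rise, and these shares include genes with few counts. They are therefore not matched to the counts of the 10.

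DF508 replicate 2 was below replicate 1 in 10 of 10 genes, against 50.3% of all tested genes and 51.4% of those with a mean of at least 50 counts. The counting interval of the ratio lay below 1 in 6 of them, Cdkn2a, Cdkn2b, Ccng1, Phlda3, Btg2 and Cdkn1a, against 8.05% of all tested genes, and above 1 in 0, against 9.12%. The median ratio was 0.86 for the 10 and 0.999 for all tested genes. With 1 library on each side this compares 2 libraries and has no replicate check. The interval shares are again over all tested genes and are not matched to the counts of the 10. All 13 tested myeloid markers were higher in replicate 2 than in replicate 1, and the level summed over all 14 was 752 CPM against 160 CPM. The part of these markers' cells in the lower values was not tested. In bulk RNA, fewer cells of a type and less RNA per cell cannot be told apart.

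**Figure D3:**
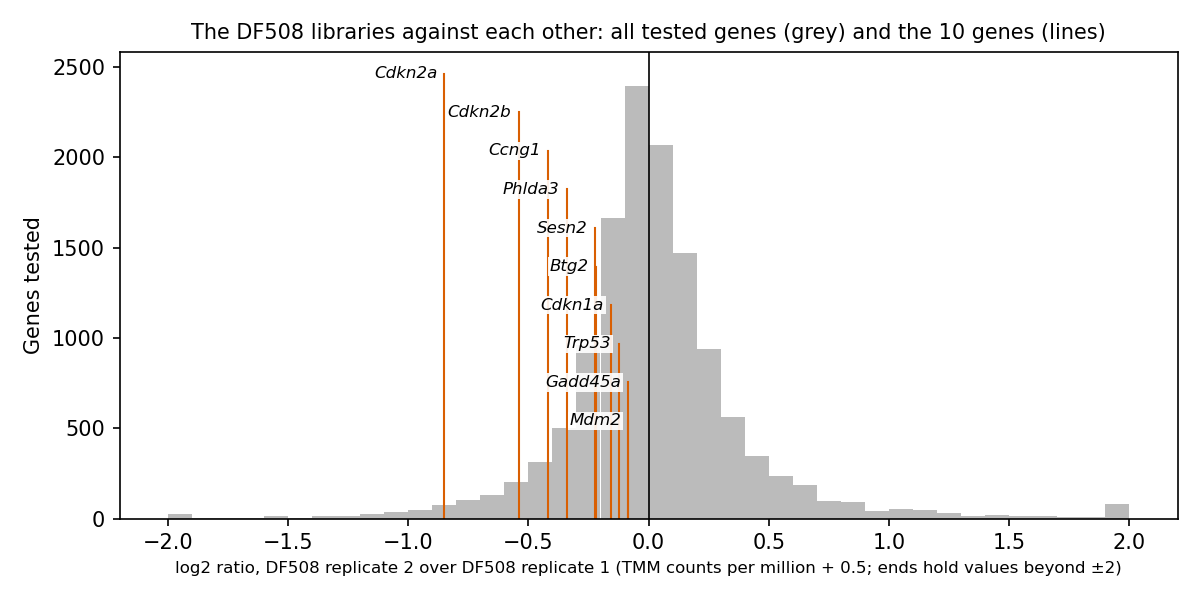
Histogram of the log2 ratio of DF508 replicate 2 to DF508 replicate 1 (horizontal axis) over the 12888 tested genes (vertical axis, number of genes), with a line at the ratio of each of the 10 genes, whose height only spaces the labels. All 10 lines lie to the left of 0, with Cdkn2a and Cdkn2b furthest out.

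Other genes of the pathway were compared in the same fit. For the list counts that follow, 11.9% of all tested genes had an unadjusted p under 0.05 in either direction. Called lower were 0.9% and called higher 0.489%. Of 59 tested p53 targets outside the 10, in 3 lists, none fell, 1 rose and 58 did not pass, and the median log2 fold change was 0.00, beside -0.33 for the 10 genes and 0.01 for all tested genes. Of all 141 tested pathway genes outside the 10, edgeR's quasi-likelihood test called none lower, and its likelihood ratio test 2. Both DF508 libraries were below WT in 14 of the 59 (23.7%, against 29.6% of all tested genes, on library totals). Replicate 2 was below replicate 1 in 42 of them (71.2%, against 50.3%).

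Among 17 tested p53 targets of apoptosis none passed (1 at an unadjusted p under 0.05), with a median of 0.06. The most abundant were Pml, the organiser of nuclear bodies (126 CPM in WT, 130 ± 10.3 CPM in DF508), and the death receptor Tnfrsf10b, which shares reads (109 and 108 ± 8.53 CPM). Of 20 targets in DNA repair and metabolism none passed (3 at an unadjusted p under 0.05, median 0.00). The most abundant were the epoxide hydrolase Ephx1, with a log2 fold change of -0.06, and the peroxidase Gpx1, with 0.31 (edgeR adjusted p = 0.288).

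Of 22 other p53 targets 9 had an unadjusted p under 0.05, with fold changes in both directions, and 1 passed. This was Ckap2, a microtubule-binding protein of dividing cells, which rose. Its level was 27.7 CPM in WT and 60.5 and 59.3 CPM in the DF508 libraries, 2.09-fold higher with nearly equal DF508 values (log2 fold change 1.06 ± 0.14, edgeR adjusted p = 0.0112). Among 21 tested p53 regulators and relatives, none passed (3 at an unadjusted p under 0.05, median 0.04). The nucleolar protein Npm1 and the ribosomal protein Rpl5, both known to bind MDM2, had log2 fold changes of 0.08 and -0.05. Mdm4, the partner of MDM2, had 70.6 CPM in WT and 66 ± 9.21 CPM in DF508 (log2 fold change -0.14, edgeR adjusted p = 0.765).

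The next list held growth arrest genes of the Gadd45, Btg, Tob, Sesn, Ccng and Phlda families. It also held Gadd45gip1 and the Gas and Foxo genes, which are not of the members' families. Of its 16 tested genes none passed (2 at an unadjusted p under 0.05), and 10 had a negative fold change (median -0.15). Gadd45b and Gadd45g, both stress-induced like Gadd45a, had log2 fold changes of -0.40 and -0.42 (edgeR adjusted p = 0.443 and 0.353), and Btg1 one of -0.48 (adjusted p = 0.111). The most abundant, Gas1 and Gas2, had -0.24 and 0.05. The sestrins Sesn1 and Sesn3 had 0.13 and 0.28, opposite in sign to Sesn2.

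None of 7 other cyclin-dependent kinase inhibitors and pocket proteins passed (median -0.06). Of these, 2 had an unadjusted p under 0.05, Cdkn2c and Rbl1, in opposite directions. Cdkn1b, the p27 gene and the most abundant, had 78.3 CPM in WT and 77.6 ± 12.1 CPM in DF508. Rbl2, next in abundance, had 77.4 CPM in WT and 76.6 ± 3.69 CPM in DF508. Cdkn2c, the p18 gene, had 19.4 CPM in WT and 11.1 and 10.7 CPM in DF508, a log2 fold change of -0.88 ± 0.23 that did not pass (edgeR adjusted p = 0.14). Rbl1, a pocket protein gene, had 16.4 CPM in WT and 26.5 and 25.7 CPM in DF508. Its log2 fold change of 0.62 ± 0.20 did not pass either (edgeR adjusted p = 0.237). Of 17 regulators of the Ink4 and Arf locus, chiefly Polycomb proteins and transcription factors, none passed (3 at an unadjusted p under 0.05, median 0.03). The most abundant, Twist1 and the histone demethylase Kdm6b, had log2 fold changes of -0.31 and -0.20.

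Genes of cell division that p53 and p21 are known to lower through the DREAM repressor complex form the last list. Of 22 tested, 5 rose, none fell and 17 did not pass, with 20 at an unadjusted p under 0.05, 21 positive fold changes and a median log2 fold change of 0.67. The mitotic kinase Aurkb was 2.6-fold, the topoisomerase Top2a 1.85-fold, the proliferation marker Mki67 1.84-fold and the cyclin Ccna2 1.83-fold higher (edgeR adjusted p = 0.044, 0.0198, 0.0139 and 0.045). This list was drawn up with the rise of cell division genes in these libraries already known, so it is not independent evidence of that direction. In it replicate 2 was below replicate 1 in 4 of 22 genes. These 5 calls and that of Ckap2 were lost under the 5 settings that lost Btg2.

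**Figure D4:**
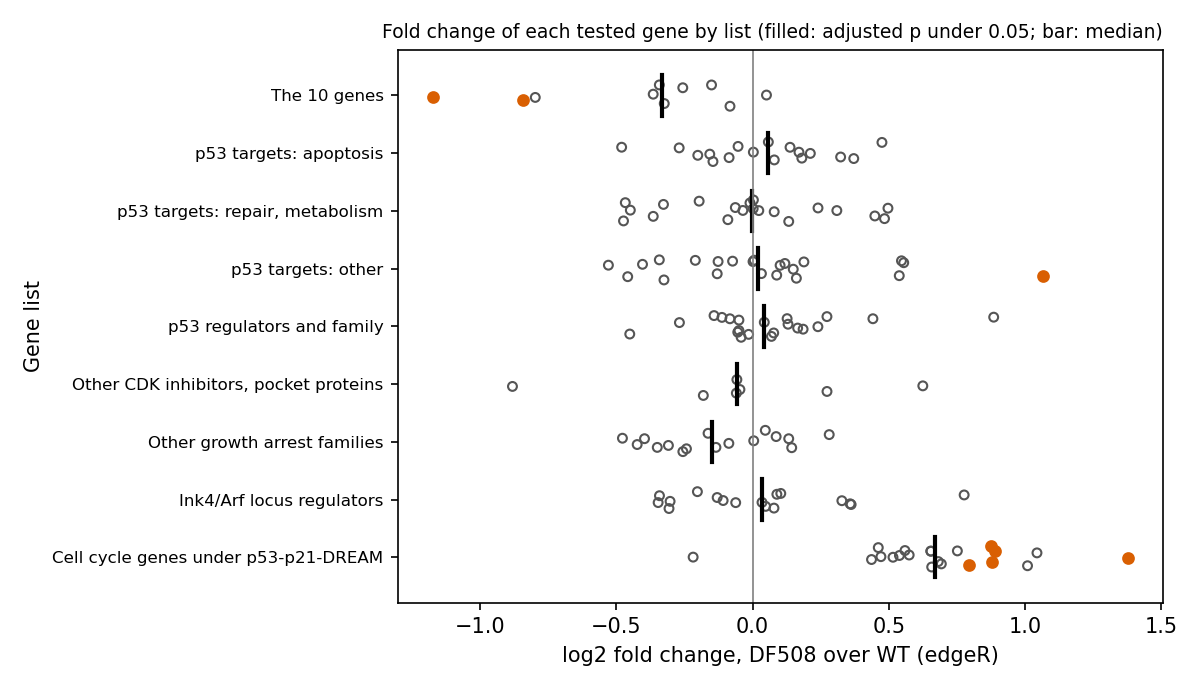
Log2 fold change of DF508 over WT (horizontal axis) for each tested gene, by list (vertical axis); filled points passed the test and black bars are medians. The bar of the 10 genes lies at -0.33, those of the other p53 target lists at 0.06, 0.00 and 0.02, and that of the cell cycle genes at 0.67.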

How the data were processed

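Poly(A) RNA of 1 WT and 2 DF508 libraries was analysed from the tables the authors deposited, 1 per library. Per the submitters' processing notes they used Bowtie and RSEM with mm9; the sources used here give no version, annotation or strand setting. Per the file headers, the authors' values are RSEM expected counts (not normalized), FPKM scaled by them, and gene length. Tables list genes with an estimate above 0; a missing gene was set to 0. Symbols came from RefSeq GRCm38.p6 (16579 of 16621 IDs matched); start windows are from the same build, and no mm9 coordinates are given.

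Expected counts were rounded and tested with edgeR 4.0.16 (R 4.3.3): TMM, filterByExpr, quasi-likelihood test, genotype as sole term, Benjamini-Hochberg over 12888 genes, threshold 0.05. Residual degrees of freedom were 1, from the DF508 pair, with 7.72 prior ones. Ratios between single libraries have exact 95% conditional binomial intervals. A gene shares reads if an estimate was not whole within 0.005. Alternatives used DESeq2 1.42.0, limma 3.58.1 with log2(FPKM + 1) or log2(FPKM + 0.1), other scalings and filters, and each DF508 library left out. Named genes are all members, and of each pathway list up to 4 past the threshold per direction, otherwise the 2 most abundant, with relatives of members. Rbl1 was added after its values were seen. The members and lists were chosen with earlier results of these data known.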

Additional observations from a re-analysis of the deposited data

How the results depend on the processing

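No paired analysis was possible because WT has 1 library with no number. Called genes of all tested, 116 lower and 63 higher, became 0 and 0 in edgeR on library totals (491 and 762 at an unadjusted p under 0.05) and without a filter (604 and 519), where prior degrees of freedom fell from 7.72 to 2.57 and 1.78, and 0 and 0 in limma on log2(FPKM + 1), filtered or not, and log2(FPKM + 0.1), filtered. They were 41 and 22 with DESeq2's Wald test and 221 and 182 with edgeR's likelihood ratio test. Members called lower, 2, became 1 with upper-quartile factors, a mean of at least 50 counts or DESeq2, and 0 (3 at an unadjusted p under 0.05) on library totals, without a filter and on FPKM; the cause was not tested. Other pathway genes called higher, 6, became 0 under those 5 settings, 2 with DESeq2 and 3 with limma-voom, and those called lower, 0, became 2 in the likelihood ratio test. At 2-fold, 0.66% of genes were lower and 2.01% higher in both DF508 libraries, against 2.41% and 5.49% at 1.5-fold. Without DF508 replicate 1 or 2, a value with no test, Btg2 had log2 fold changes of -0.95 and -0.74, Gadd45a -1.19 and -1.10, Cdkn2a -1.28 and -0.43, and Cdkn2b -0.66 and -0.12; Trp53, Ccng1 and Phlda3 changed sign between the 2. The median of the 10 was -0.39 and -0.20. The 8 other members passed under none of the 11 tested settings. Gadd45a rests on 50 to 114 counts.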
